A study of Homo sapiens with 8 samples.

Results

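The genes described here encode bromodomain and extra-terminal domain (BET) proteins and the components of positive transcription elongation factor b (P-TEFb) with its inhibitory complex. They were taken by gene symbol: the BET genes BRD2, BRD3 and BRDT, the kinase gene CDK9 with its cyclin genes CCNT1 and CCNT2, and HEXIM1, HEXIM2 and LARP7, which is 9 of the 20531 genes in the deposited tables. Of these, 8 reached a normalised read count of 10 in at least 1 library, as did 14429 genes in all, and BRDT did not. The rule itself uses no measured value.

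Polyadenylated RNA came from 8 cultures of SKBR-3 and BT474m1, human breast carcinoma lines that both carry an amplified HER2 (ERBB2) gene. Each line was given the vehicle DMSO, 300 nM lapatinib (which blocks the kinase domains of EGFR and HER2), 300 nM JQ1 (a small molecule that occupies the acetyl-lysine pocket of BET bromodomains) or both drugs, with 1 library in each of the 8 groups. The labels, and a figure legend of the study, give 48 h of treatment, whereas its methods text and another figure legend give a shorter time. With 1 culture per group no spread between replicates of a group could be measured, and no comparison within a line was tested. Intervals below are 95% intervals for the counting of reads alone, except in an additive fit over all 8 libraries, which takes its error from how far the libraries depart from additive effects of line, lapatinib and JQ1.

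BET proteins read acetylated lysines on histones through paired bromodomains and help to bring transcription factors and elongation factors to active promoters and enhancers. P-TEFb is the kinase CDK9 bound to cyclin T1 or cyclin T2. It phosphorylates RNA polymerase II and the pausing factors, which releases polymerase that has stopped shortly after initiation. Much of the cellular P-TEFb is held inactive in a ribonucleoprotein built on the small nuclear RNA 7SK, in which HEXIM1 or HEXIM2 inhibits the kinase, LARP7 protects the RNA and MEPCE caps it. A higher level of HEXIM1 mRNA is a widely used sign that a BET inhibitor has acted in a cell.

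The sequences before the transcription starts of HEXIM1, HEXIM2 and BRD2 are given first, because these genes had the largest log2 changes of the set with JQ1 against DMSO. Each is the 250 bases before a RefSeq start on GRCh38.p14, all on the plus strand, written 5′ to 3′. Capitals mark matches on either strand to any of 6 short motifs: the TATA box (TATAAA), the CCAAT box (CCAAT), the GC box (GGGCGG), the ETS core (CCGGAA), the cyclic AMP response element core (TGACGT) and the E-box (CACGTG).
HEXIM1, chr17:45148225-45148474: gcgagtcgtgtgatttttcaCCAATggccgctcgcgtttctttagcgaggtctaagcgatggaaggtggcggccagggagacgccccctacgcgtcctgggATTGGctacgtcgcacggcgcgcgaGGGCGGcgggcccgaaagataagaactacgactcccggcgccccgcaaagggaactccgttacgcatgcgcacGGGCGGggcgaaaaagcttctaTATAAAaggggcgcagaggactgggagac
HEXIM2, upstream start, chr17:45159924-45160173: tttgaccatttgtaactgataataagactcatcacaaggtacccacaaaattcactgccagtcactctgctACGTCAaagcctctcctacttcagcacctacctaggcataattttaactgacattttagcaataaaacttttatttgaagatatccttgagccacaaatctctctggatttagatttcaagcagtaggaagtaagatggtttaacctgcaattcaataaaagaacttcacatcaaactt
HEXIM2, downstream start, chr17:45161625-45161874: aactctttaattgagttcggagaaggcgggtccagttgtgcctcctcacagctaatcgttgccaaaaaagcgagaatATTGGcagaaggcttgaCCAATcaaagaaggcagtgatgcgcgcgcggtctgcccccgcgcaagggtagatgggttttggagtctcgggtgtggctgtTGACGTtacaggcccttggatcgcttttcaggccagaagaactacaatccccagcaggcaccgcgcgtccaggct
BRD2, most upstream of 4 starts, chr6:32968344-32968593: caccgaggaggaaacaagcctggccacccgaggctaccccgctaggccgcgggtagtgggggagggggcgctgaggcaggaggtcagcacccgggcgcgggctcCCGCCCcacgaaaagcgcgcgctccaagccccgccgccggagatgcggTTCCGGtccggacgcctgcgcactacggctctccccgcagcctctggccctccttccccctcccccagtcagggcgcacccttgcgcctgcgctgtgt

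The HEXIM1 window held a TATA box 29 to 24 bases before the start, 2 GC boxes and 2 CCAAT boxes, 1 on each strand. Over the 35116 promoter windows of this length in the same RefSeq table, 10.7% held a TATA box, 42.6% a GC box and 32.0% a CCAAT box. HEXIM2, the neighbour of HEXIM1 on chromosome 17, held none of these letters before its upstream start other than 1 cyclic AMP response element core, and 2 CCAAT boxes and 1 such core before its downstream start. The core was found in 7.10% of all windows. The windows before the 2 HEXIM2 starts held 36.0% and 55.2% G and C, against 62.4% for HEXIM1 and 74.0% for the BRD2 window, which held 1 GC box and 1 ETS core (14.5% of all windows). E-boxes (6.34% of all windows) were absent from these 4 windows. All 9 genes matched the table, with 16 windows in all. A GC box was in 12 of these 16 windows, and at least 1 window held it for 8 of the 9 genes. These matches are letters in a window, and no binding was measured here.

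The depth allowed most of the genes to be read closely. Each library held between 21420114 and 34112381 reads on genes, and 1 read was worth 0.471 to 0.766 units of the normalised read count, in which the upper quartile of the genes above 0 is 1000. The BT474m1 DMSO and JQ1 libraries were the deepest. The luminal and HER2-amplicon genes ERBB2, GRB7, KRT8, KRT18 and EPCAM were at 3300 or more in every library. The estrogen receptor gene ESR1 lay between 1.93 and 16.8 in SKBR-3 and between 190 and 1827 in BT474m1. Among 5 markers of other cell types (VIM, COL1A1, PTPRC, KRT5 and PECAM1), the summed level ranged over 30.3 to 125 in SKBR-3 and over 655 to 1868 in BT474m1. The leukocyte gene PTPRC stayed at 3.38 or less in all libraries, and the endothelial gene PECAM1 was at 0 in SKBR-3 and at 0.583 or less in BT474m1. VIM and COL1A1, at up to 657 and 1253, made up nearly all of the sum in BT474m1, and their part in the results was not tested.

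The transcript of BRD2, a BET protein found in most tissues, was the most abundant of the set. Its normalised read count in SKBR-3 was 4737 under DMSO, 5116 under lapatinib, 11948 under JQ1 and 12153 under the combination. The BT474m1 values were 4401 under DMSO, 4033 under lapatinib, 8556 under JQ1 and 6367 under the combination. In each line the 2 libraries with JQ1 stood above the 2 without it. The log2 change with JQ1 against DMSO, on the scale of log2 of the value plus 1, was 1.33 (95% interval 1.29 to 1.38) in SKBR-3, where it passed the 2-fold limit used here as a call. In BT474m1 it was 0.96 (0.92 to 1.0), a fold of 1.94 that fell just short of that limit. Adding lapatinib to JQ1 left BRD2 at nearly the same value in SKBR-3, with a log2 change of 0.02 (-0.01 to 0.05), and gave -0.43 (-0.46 to -0.39) in BT474m1. The start of BRD2 overlaps HLA-DMA on the other strand in GENCODE v44. In bulk RNA a difference in level per cell and a difference in the share of cells that express a gene cannot be told apart.

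BRD3, another widely expressed BET protein, followed a different course. In SKBR-3 its values were 501 under DMSO, 1213 under lapatinib, 819 under JQ1 and 1836 under both. The DMSO library was the lowest of the 4 and the library with both drugs the highest, and the 95% counting intervals of these 4 values did not overlap. Lapatinib raised BRD3 in SKBR-3 by 1.27 (1.15 to 1.41) on the log2 scale and both drugs raised it by 1.87 (1.75 to 2.0), a fold of 3.66. With JQ1 alone the log2 change was 0.71 (0.57 to 0.84). In BT474m1 the values stayed between 2389 and 2647, all above the highest SKBR-3 value, and no change against DMSO there was larger than 0.10 in size. The 3′ end of BRD3 overlaps the opposite-strand gene BRD3OS in GENCODE v44, and whether strand was used in counting is not given in the sources used here.

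BRDT, the testis member of the family, had no read in any of the 8 libraries. The exact Poisson upper limits of these counts of 0 were 1.74 to 2.82 units of normalised read count depending on the library. No fold was computed for it.

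CDK9, the catalytic subunit of P-TEFb, differed between the lines in its values with JQ1. The SKBR-3 values were 599 under DMSO, 696 under lapatinib, 976 under JQ1 and 958 under both. The BT474m1 values were 707 under DMSO, 682 under lapatinib, 770 under JQ1 and 685 under both. In SKBR-3 the libraries with JQ1 were clear of the libraries without it, with log2 changes against DMSO of 0.70 (0.58 to 0.83) for JQ1 and 0.68 (0.55 to 0.80) for both drugs. In BT474m1 the counting intervals of the DMSO, lapatinib and combination libraries overlapped, and the change with JQ1 was 0.12 (0.02 to 0.22). No CDK9 change reached 2-fold in any within-line comparison.

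The cyclin subunit genes behaved unlike each other. CCNT1 (cyclin T1) in SKBR-3 was at 319 under DMSO, 394 under lapatinib, 439 under JQ1 and 612 under both, an order in which the combination stood highest with a log2 change of 0.94 (0.77 to 1.11). In BT474m1 CCNT1 was at 527 under DMSO, 534 under lapatinib, 679 under JQ1 and 616 under both. The JQ1 library was highest there, at 0.37 (0.25 to 0.48) above DMSO, and its interval overlapped that of the library with both drugs. The change between them, both drugs against JQ1, was -0.14 (-0.26 to -0.02). CCNT2 (cyclin T2) stayed within 570 to 649 in SKBR-3 and within 1219 to 1351 in BT474m1, so that the lines did not overlap and no change against DMSO was larger than 0.19 in either line. All 4 SKBR-3 counting intervals of CCNT2 overlapped. The intervals of its changes against DMSO there still lay above 0 for JQ1, at 0.17 (0.03 to 0.30), and for both drugs, at 0.19 (0.05 to 0.32).

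HEXIM1, the main inhibitor of P-TEFb in the 7SK complex, was higher with JQ1 in both lines, as BRD2 was. In SKBR-3 it measured 2112 under DMSO, 2825 under lapatinib, 3704 under JQ1 and 3277 under both. In BT474m1 it measured 1204 under DMSO, 1046 under lapatinib, 2910 under JQ1 and 2931 under both. The libraries with JQ1 stood above those without in both lines, by a clear gap in BT474m1 and a smaller one in SKBR-3, where lapatinib alone was also above DMSO. Adding JQ1 to lapatinib raised HEXIM1 in BT474m1 by 1.49 (1.41 to 1.57), a fold of 2.80, whereas the same step in SKBR-3 gave 0.21 (0.15 to 0.28). Adding lapatinib to JQ1 gave 0.01 (-0.04 to 0.06) in BT474m1 and -0.18 (-0.23 to -0.12) in SKBR-3.

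HEXIM2, which also inhibits P-TEFb, had few reads and went the other way with JQ1. Its values in SKBR-3 were 42.5 under DMSO (59 reads), 91.3 under lapatinib (119 reads), 14.4 under JQ1 (22 reads) and 37.6 under both (55 reads). In BT474m1 they were 87.9 under DMSO, 104 under lapatinib, 51.1 under JQ1 and 52.2 under both, from 90 to 186 reads. JQ1 lowered HEXIM2 in SKBR-3, with a log2 change of -1.49 (-2.35 to -0.85), and the change in BT474m1 was -0.77 (-1.13 to -0.42). Lapatinib raised it in SKBR-3 by 1.08 (0.65 to 1.58), which was 0.95 and short of 2-fold with a pseudocount of 10, and gave 0.24 (-0.06 to 0.56) in BT474m1. The wide intervals come from the read numbers. In GENCODE v44 the antisense gene HEXIM2-AS1 overlaps HEXIM2 and the 3′ end of HEXIM1, so reads from it cannot be told apart from theirs if strand was not used in counting.

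LARP7, the protein that binds the end of the 7SK RNA and protects it, had the lowest value with JQ1 alone in each line. It was at 926 under DMSO, 936 under lapatinib, 766 under JQ1 and 823 under both in SKBR-3, and at 1082, 1221, 905 and 1125 in the same order in BT474m1. The log2 changes with JQ1 were -0.27 (-0.39 to -0.16) and -0.26 (-0.35 to -0.17), close to each other and far from the 2-fold limit. The counting intervals of JQ1 and the combination overlapped in SKBR-3, as did those of DMSO and the combination in BT474m1.

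**Figure D1:**
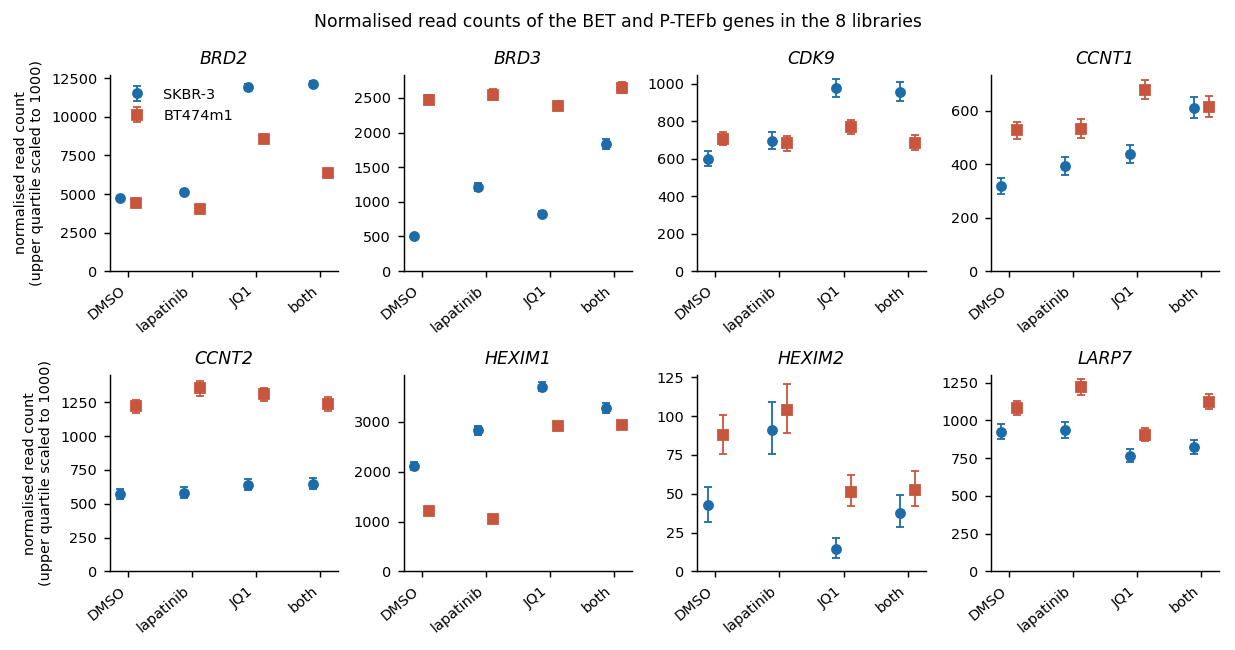
Normalised read counts (y axes, each starting at 0) of the 8 genes above 10 in the DMSO, lapatinib, JQ1 and combination libraries (x axes) of SKBR-3 (blue circles) and BT474m1 (red squares); bars are 95% counting intervals of 1 library each. BRD2 and HEXIM1 stood higher in the libraries with JQ1 in both lines, BRD3 spread from 501 to 1836 in SKBR-3 only while staying between 2389 and 2647 in BT474m1, and CCNT2 separated the lines.

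Levels can be compared between genes only per length. Divided by the length of the GENCODE v44 canonical transcript, which is not the annotation behind the deposited values, the SKBR-3 DMSO library gave, in units per kilobase, 956 for BRD2, 583 for HEXIM1, 439 for LARP7, 241 for CDK9, 88.5 for BRD3, 82.3 for CCNT2, 47.0 for CCNT1 and 29.6 for HEXIM2. In BT474m1 DMSO the order was BRD2 at 888, LARP7 at 514, BRD3 at 437, HEXIM1 at 332, CDK9 at 285, CCNT2 at 176, CCNT1 at 77.6 and HEXIM2 at 61.2. BRD2 led and HEXIM2 was last in both lines. HEXIM1 stood above BRD3 in SKBR-3 and below it in BT474m1. With JQ1, HEXIM1 stood at 1022 per kilobase in SKBR-3 and 803 in BT474m1, above LARP7 and CDK9 in both lines.

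The counts of genes past 2-fold were then set beside those of all 14429 genes. With JQ1 in SKBR-3, 1 of the 8 genes (BRD2) was raised and 1 (HEXIM2) lowered, when 3.75% of all genes were raised and 11.8% lowered. With JQ1 in BT474m1, 1 gene (HEXIM1) was raised and none lowered, against 4.81% and 11.8% of all genes. BRD2 in SKBR-3 stood above 98.1% of all genes in its log2 change, and HEXIM1 in BT474m1 above 97.2%. HEXIM1 in SKBR-3 and BRD2 in BT474m1, although short of 2-fold, stood above 94.7% and 94.6%. The median log2 change of the 8 genes with JQ1 was 0.58 in SKBR-3 and 0.11 in BT474m1, when the medians of all genes were -0.08 and -0.06. In SKBR-3 the counting interval lay above 0 for 6 genes and below 0 for HEXIM2 and LARP7. In BT474m1 it lay above 0 for 5 genes, below 0 for HEXIM2 and LARP7, and included 0 for BRD3. The share of all genes with such intervals was not counted.

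With lapatinib in SKBR-3, 2 genes (BRD3 and HEXIM2) were raised and none lowered, against 11.1% and 9.44% of all genes. HEXIM2 was short of the limit there with a pseudocount of 10, which leaves BRD3. No gene of the set was raised or lowered by lapatinib in BT474m1, where 14.0% of all genes were raised and 8.06% lowered. There the 8 changes lay between -0.20 and 0.24, with a median of 0.03 beside 0.07 for all genes. The SKBR-3 median was 0.26 beside 0.05.

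With both drugs against DMSO, 2 genes (BRD2 and BRD3) were raised in SKBR-3 and none lowered, beside 10.8% and 20.8% of all genes. Under the median of ratios CCNT1 was also past the limit there, at 1.08 against 0.94 as deposited. In BT474m1, HEXIM1 was the 1 gene raised and none was lowered, beside 14.2% and 15.3%. The 3 comparisons with DMSO in a line share that line's DMSO library, so an error in it would enter all of them.

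Each drug was also added to the other. Adding JQ1 to lapatinib raised BRD2 and lowered HEXIM2 in SKBR-3, 1 gene each way, with 3.22% of all genes raised and 16.2% lowered. In BT474m1 the same step raised 1 gene, HEXIM1, and lowered none, with 5.20% and 12.5% of all genes past the limits. HEXIM2 there had a fold of 0.506, just inside the limit. Adding lapatinib to JQ1 raised BRD3 by 1.16 (1.07 to 1.26) and HEXIM2 by 1.32 (0.68 to 2.20) in SKBR-3, 2 genes raised and none lowered beside 9.79% and 12.3% of all genes. With a pseudocount of 10 this HEXIM2 change was 0.96, short of 2-fold. In BT474m1 it raised none and lowered none of the 8 genes, beside 12.4% and 7.27%. With 8 genes, counts of 0 to 2 are near what these background shares give, so they say little about the set as a whole, and the results are those of the single genes.

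Each drug was tested over both lines at once with an additive fit, which was chosen after the data had been seen. It used limma on log2 of the value plus 1, with line, lapatinib and JQ1 as terms, 4 residual degrees of freedom and Benjamini-Hochberg adjustment over the 14429 genes. A drug thus has 4 matched pairs of libraries, and any true difference between lines or between single and combined drugs counts as error. JQ1 raised BRD2 by 1.05 (fit interval 0.72 to 1.38, limma adjusted p = 0.00560) and HEXIM1 by 0.95 (0.49 to 1.40, limma adjusted p = 0.0194), each higher in 4 of 4 pairs. It lowered HEXIM2, lower in 4 of 4 pairs, with an effect of -1.13 (-1.83 to -0.42, limma adjusted p = 0.0432). That is 2 genes raised and 1 lowered of 8, beside 4.84% and 10.7% of all genes by the same test.

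The BRD2 call held without any 1 of the 8 libraries, with limma adjusted p between 0.00632 and 0.0229. The HEXIM2 call was lost when any 1 library was left out (0.0535 to 0.124 by limma, adjusted) and under the median of ratios (0.0548). The HEXIM1 call was lost without the SKBR-3 DMSO library (limma adjusted p = 0.0548) and without the BT474m1 DMSO (0.0591), lapatinib (0.0514) or JQ1 (0.0651) library. With no filter on low genes HEXIM1 and HEXIM2 gave limma adjusted p of 0.0980 and 0.110, and BRD2 gave 0.0371. Lapatinib gave no call among the 8 genes in this fit, beside 14.7% of all genes raised and 12.5% lowered, and 1 gene, BRD3, had an unadjusted p under 0.05. BRD3 was higher with lapatinib in 4 of 4 pairs, by 0.66 (0.09 to 1.23, limma adjusted p = 0.0838), and passed without the BT474m1 DMSO library (0.0313) or the BT474m1 library with both drugs (0.0373). Its 2 large changes were both in SKBR-3, and a difference of that kind is error in this fit.

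**Figure D2:**
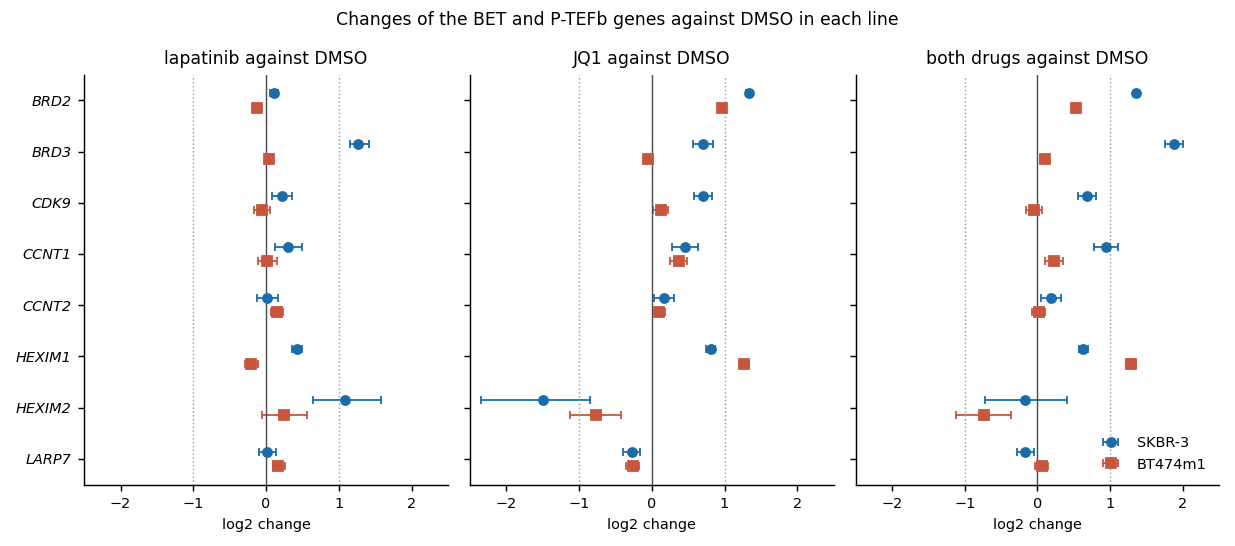
Log2 changes against DMSO (x axes) of the 8 genes (rows) with lapatinib, JQ1 and both drugs in SKBR-3 (blue circles) and BT474m1 (red squares); bars are 95% counting intervals and dotted lines mark 2-fold. The lines lay apart for BRD3 under every treatment, and HEXIM2 was the gene furthest below 0 with JQ1 in both lines.

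Pairs of related genes were next read within each library, where the scaling of the library has no effect. Of the reads on BRD2 and BRD3 in SKBR-3, BRD2 held 90.4% (89.7 to 91.1) under DMSO, 80.8% (80.0 to 81.7) under lapatinib, 93.6% (93.2 to 93.9) under JQ1 and 86.9% (86.4 to 87.3) under both. In BT474m1 the BRD2 share was 64.0% (63.2 to 64.8) under DMSO, 61.3% (60.4 to 62.2) under lapatinib, 78.2% (77.6 to 78.7) under JQ1 and 70.6% (69.9 to 71.3) under both. The order of the treatments was JQ1, then DMSO or the combination, then lapatinib, and the intervals of no 2 treatments overlapped within a line. The lines did differ in the middle of that order: DMSO stood above the combination in SKBR-3 and below it in BT474m1.

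CCNT1 held 35.9% (33.2 to 38.6) of the reads on the cyclin T genes in SKBR-3 with DMSO, 40.4% (37.7 to 43.2) under lapatinib, 40.7% (38.3 to 43.1) under JQ1 and 48.5% (46.2 to 50.8) under both. The last of these was clear of the others. In BT474m1 the share was 30.2% (28.7 to 31.7) under DMSO, 28.3% (26.8 to 30.0) under lapatinib, 34.2% (32.7 to 35.6) under JQ1 and 33.3% (31.7 to 35.0) under both.

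HEXIM1 made up nearly all of the reads on the 2 HEXIM genes. In SKBR-3 the share was 98.0% under DMSO, 96.9% under lapatinib, 99.6% under JQ1 and 98.9% under both. In BT474m1 it was 93.2%, 91.0%, 98.3% and 98.2% in the same order. As a ratio of reads, HEXIM1 over HEXIM2 was 49.7 under DMSO and 256 under JQ1 in SKBR-3, beside 13.7 and 56.9 in BT474m1, and it was lowest with lapatinib in each line, at 30.9 and 10.1. The neighbouring genes thus stood furthest apart in libraries with JQ1.

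The pair of HEXIM1 and CDK9, inhibitor and kinase, was chosen after their values were seen. In SKBR-3 HEXIM1 held 77.9% (76.5 to 79.2) of the pair's reads with DMSO, 80.2% (79.1 to 81.4) under lapatinib, 79.1% (78.2 to 80.1) under JQ1 and 77.4% (76.3 to 78.4) under both. In BT474m1 it held 63.0% (61.5 to 64.5) under DMSO, 60.5% (58.7 to 62.3) under lapatinib, 79.1% (78.2 to 80.0) under JQ1 and 81.1% (80.1 to 82.0) under both. The SKBR-3 shares lay within a narrow band, with both genes higher under JQ1 there, and the BT474m1 shares fell into a low pair without JQ1 and a high pair with it.

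**Figure D3:**
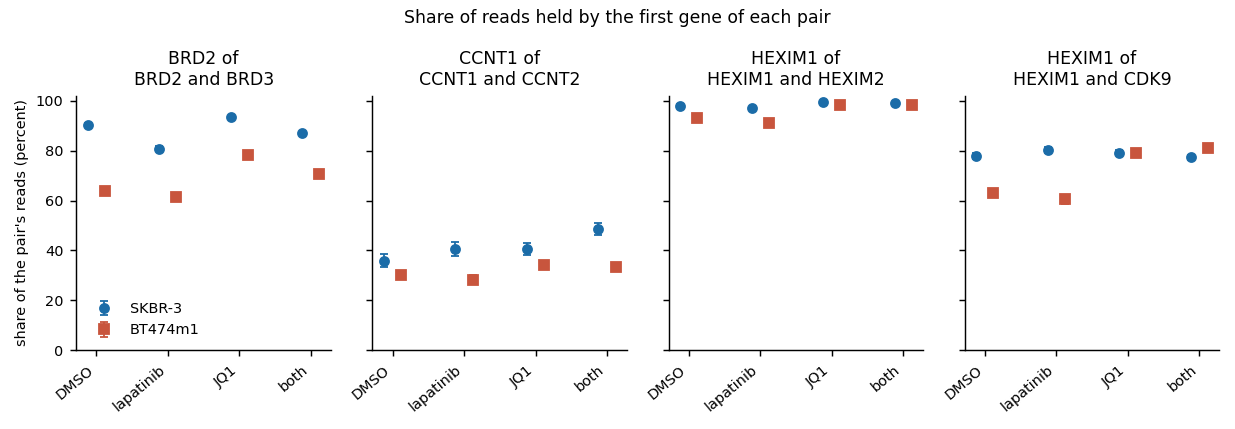
Share of reads (y axis, percent) held by the first gene of each of 4 pairs in the DMSO, lapatinib, JQ1 and combination libraries (x axes) of SKBR-3 (blue circles) and BT474m1 (red squares); bars are exact 95% binomial intervals, which the points mostly hide. The HEXIM1 share of HEXIM1 and CDK9 stayed between 77.4% and 80.2% in SKBR-3 and stepped from 63.0% under DMSO to 79.1% under JQ1 in BT474m1.

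The combination was compared with the sum of the single-drug log2 changes. For HEXIM1 in SKBR-3 the single drugs gave 0.42 and 0.81, a sum of 1.23, and the combination gave 0.63, which is 0.60 below the sum (departure -0.60, 95% interval -0.69 to -0.51). HEXIM1 in BT474m1 departed by 0.21 (0.11 to 0.32), so the lines lay on opposite sides of 0. BRD2 in BT474m1 departed by -0.30 (-0.36 to -0.24), with a combination change of 0.53 against a sum of 0.83. BRD3 in SKBR-3, where lapatinib gave 1.27 and JQ1 0.71, came to 1.87 with both, -0.11 (-0.27 to 0.05) from the sum of 1.98. Its changes therefore added on the log2 scale to within counting error.

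No gene of the set departed by 2-fold in either line. Of all 14429 genes, 563 departed above and 1093 below that limit in SKBR-3, and 681 and 682 in BT474m1. In SKBR-3 the interval lay below 0 for 3 genes (BRD2, CDK9 and HEXIM1) and included 0 for 5. That split rested on the scaling, being 1 above, 1 below and 6 including 0 under the median of ratios and 2 above, 1 below and 5 including 0 with equal totals. HEXIM1 stayed below 0 under both. The BRD2 departure, -0.09 as deposited, was -0.01 and 0.03 in that order, and the CDK9 interval then included 0 (-0.34 to 0.00 and -0.30 to 0.04). CCNT1 was above 0 under both, and LARP7 with equal totals. In BT474m1 it lay above 0 for 3 (BRD3, HEXIM1 and LARP7), below 0 for 2 (BRD2 and CCNT2) and included 0 for 3, and these counts were the same under both other scalings. Over all genes the quartiles of the departure were -0.38 and 0.19 in SKBR-3 and -0.23 and 0.24 in BT474m1, so HEXIM1 in SKBR-3, above 15.9% of genes, and BRD2 in BT474m1, above 20.3%, were outside the middle range without being extreme. The sum uses the same DMSO library for both drugs.

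**Figure D4:**
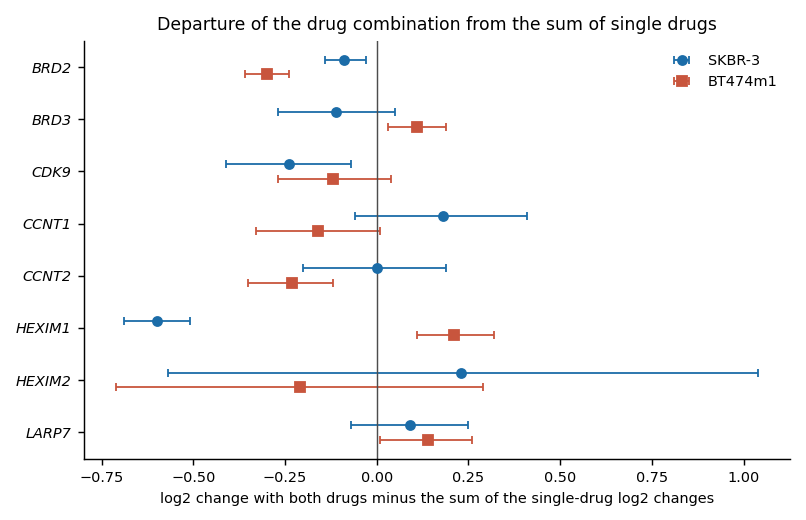
Log2 change with both drugs minus the sum of the log2 changes with lapatinib and JQ1 (x axis) for the 8 genes (rows) in SKBR-3 (blue circles) and BT474m1 (red squares); bars are 95% counting intervals. HEXIM1 lay at -0.60 in SKBR-3 and at 0.21 in BT474m1, and the HEXIM2 intervals were the widest and included 0.

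The untreated lines differed most in BRD3. Between the DMSO libraries, BT474m1 was above SKBR-3 by 2.30 (2.19 to 2.42) on the log2 scale for BRD3, a fold of 4.93, by 1.10 (0.98 to 1.21) for CCNT2 and by 1.03 (0.62 to 1.50) for HEXIM2. These were the 3 genes of the set raised at least 2-fold in BT474m1 against SKBR-3, when 26.8% of all genes were raised, and none was lowered, when 15.6% of all genes were. HEXIM1 stood lower in BT474m1, at -0.81 (-0.89 to -0.73). CCNT1 was at 0.72 (0.56 to 0.88), and BRD2, CDK9 and LARP7 lay within 0.24 of 0. The median of all genes was 0.21. Rescaled by the median of ratios, the CCNT2 and HEXIM2 values were 0.94 and 0.88, below the limit, and BRD3 remained above it. This comparison rests on 1 DMSO library per line. Over the 4 libraries of each line, the values of BRD3 and CCNT2 did not overlap between the lines, and those of HEXIM2 did. The share of all genes without such overlap was not counted, so this is not read as particular to these genes.

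The drug responses also differed between lines. The BRD3 change with both drugs was 1.78 lower in BT474m1 than in SKBR-3 (difference -1.78, 95% interval -1.91 to -1.64), a difference lower than that of all but 4.26% of genes. With lapatinib the BRD3 difference was -1.24 (-1.38 to -1.09). When JQ1 was added to lapatinib HEXIM1 rose in both lines, by 0.21 in SKBR-3 and 1.49 in BT474m1. That difference of 1.27 (1.17 to 1.37) was higher than that of 90.6% of genes. For JQ1 against DMSO, no gene of the set differed between lines by 2-fold, as 15.9% of all genes did. CDK9 differed by -0.58 (-0.74 to -0.42) and HEXIM1 by 0.46 (0.37 to 0.55) in that comparison, and the intervals of CCNT1, CCNT2, HEXIM2 and LARP7 included 0. Each treatment was measured once within a line.

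Another 34 genes of transcript elongation were read beside the set: MEPCE, the super elongation complex, the pausing factors, the polymerase-associated factor (PAF) complex, other kinases of the polymerase tail, factors that release P-TEFb from 7SK, and the polymerase itself. With JQ1 alone none of the 34 was raised or lowered 2-fold in either line, beside 3.75% and 11.8% of all genes in SKBR-3 and 4.81% and 11.8% in BT474m1. The median of ratios put 1 gene past 2-fold in each line, POLR2A in SKBR-3 at 1.04 and MLLT3 in BT474m1 just past the limit. The 34 had median log2 changes of 0.01 in SKBR-3 and 0.01 in BT474m1. POLR2A, the largest subunit of RNA polymerase II, had the highest change in SKBR-3 at 0.96 (0.91 to 1.0), with values of 4764 with DMSO and 9245 with JQ1. The 7SK capping enzyme gene MEPCE, which acts with LARP7, gave 0.06 (-0.01 to 0.12) in SKBR-3 and -0.08 (-0.16 to 0.01) in BT474m1.

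In SKBR-3 lapatinib lowered 4 of the 34 (DDX21, ELL2, JMJD6 and SRSF2) and raised none, when 9.44% of all genes were lowered and 11.1% raised. SRSF2, a splicing factor that also helps to release P-TEFb from 7SK at promoters, went from 4928 with DMSO to 1415 with lapatinib, a log2 change of -1.80 (-1.87 to -1.73), and to 923 under both, while JQ1 alone gave 5348. SRSF2 in BT474m1 was at 5437 under DMSO, 3023 under lapatinib, 5607 under JQ1 and 3406 under both. The SRSF2 values thus separated libraries with lapatinib from those without in both lines. CTR9, a PAF complex scaffold, was the 1 gene raised by lapatinib in BT474m1, from 1183 to 2481, and none was lowered, beside 14.0% and 8.06% of all genes. Under the median of ratios LEO1 was also past the limit there, at -1.05. The median log2 change of the 34 with lapatinib was -0.18 in SKBR-3 and -0.12 in BT474m1, when all genes gave 0.05 and 0.07.

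With both drugs, LEO1 of the PAF complex was the 1 gene of the 34 past 2-fold in the same direction in both lines. The share of all genes past 2-fold the same way in both lines was not counted. Its values in SKBR-3 were 825 under DMSO, 825 under lapatinib, 612 under JQ1 and 391 under both. In BT474m1 they were 771, 386, 569 and 341 in the same order, and the log2 changes with both drugs were -1.07 (-1.22 to -0.93) in SKBR-3 and -1.18 (-1.32 to -1.04) in BT474m1. The combination library was lowest in each line, with lapatinib alone close to it in BT474m1. Under the median of ratios the SKBR-3 change was -0.93, short of 2-fold. In SKBR-3 both drugs raised 2 of the 34 and lowered 5, when 10.8% of all genes were raised and 20.8% lowered. The median of ratios gave 3 raised and 3 lowered. AFF4, the scaffold of the super elongation complex, was highest at 1.24 (1.17 to 1.32). In BT474m1 LEO1 was the 1 gene lowered and none was raised, beside 15.3% and 14.2% of all genes.

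The added-drug comparisons gave few calls among the 34. In SKBR-3, adding JQ1 to lapatinib raised POLR2A by 1.29 (1.24 to 1.33) and lowered LEO1 at -1.07 (-1.22 to -0.93), beside 3.22% of all genes raised and 16.2% lowered. Under the median of ratios the LEO1 change was -0.91, short of 2-fold. Adding lapatinib to JQ1 there raised MLLT3, a subunit of the super elongation complex, by 1.27 (1.08 to 1.47) and lowered 4 genes, SRSF2 most, at -2.53 (-2.62 to -2.45), when 9.79% of all genes were raised and 12.3% lowered. In BT474m1, ELL2, an elongation factor of the same complex, was raised by 1.10 (0.89 to 1.33) when JQ1 was added to lapatinib and none lowered (5.20% and 12.5% of all genes), and no gene was past 2-fold when lapatinib was added to JQ1 (12.4% and 7.27%). In the additive fit over both lines, limma called 3 of the 34 raised by JQ1 (ELL2, POLR2A and RTF1) and 1 lowered (NELFCD), and none raised by lapatinib and 6 lowered, SRSF2 most, at -1.47 (-2.13 to -0.82, adjusted p = 0.00827). The same fit called 4.84% of all genes raised and 10.7% lowered by JQ1, and 14.7% and 12.5% by lapatinib. Between the DMSO libraries 3 of the 34 were higher in BT474m1 and 8 lower, when 26.8% and 15.6% of all genes were, from EAF2 at 3.2 (2.6 to 4.11) to CDK12 at -2.01 (-2.03 to -1.98). CDK12 lies beside ERBB2 in the HER2 amplicon, and its values were 38088 in SKBR-3 and 9472 in BT474m1.

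**Figure D5:**
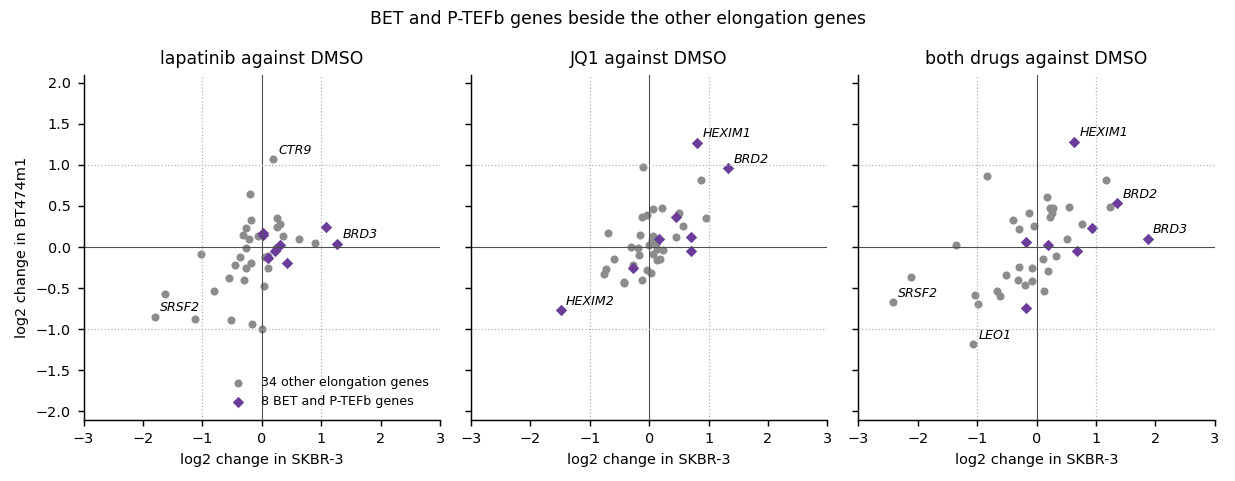
Log2 changes against DMSO in SKBR-3 (x axes) and BT474m1 (y axes) with lapatinib, JQ1 and both drugs for the 8 BET and P-TEFb genes (purple diamonds) and 34 other elongation genes (grey circles); dotted lines mark 2-fold. With JQ1 all grey points lay inside the 2-fold limits as deposited (POLR2A and MLLT3 were each past one under the median of ratios) while BRD2, HEXIM1 and HEXIM2 each crossed a limit in 1 line, and with both drugs LEO1 was the grey point past the limit in both lines, though at -0.93 in SKBR-3 under the median of ratios.

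Bromodomain genes outside the BET family were the second group of comparison. Of 35 that passed the filter, 3 were lowered past 2-fold with JQ1 in SKBR-3 (CECR2, KAT2A and ZMYND8) and none raised, when 11.8% of all genes were lowered and 3.75% raised. In BT474m1 2 were lowered (CECR2 and ZMYND8) and 1, TRIM66, raised, beside 11.8% and 4.81% of all genes. The median log2 change was -0.02 in SKBR-3 and -0.33 in BT474m1. ZMYND8, a chromatin reader with a bromodomain, was past 2-fold in both lines. It was lowered from 1354 with DMSO to 500 with JQ1 in SKBR-3. In BT474m1 it was at 3557 and 795. Those are log2 changes of -1.44 (-1.56 to -1.32) and -2.16 (-2.24 to -2.09). CECR2, a chromatin remodelling factor, rested on few reads: 9 with DMSO and 0 with JQ1 in SKBR-3, and 42 and 12 in BT474m1. It stayed under 10 units in SKBR-3 and passed the filter through BT474m1 alone, so its SKBR-3 change is given as reads only, and 2 genes were lowered there without it. In BT474m1 it was at 19.8 with DMSO and at 5.80 with JQ1, under the filter value of 10. Its call there thus depends on a filter passed where it was high, and without it ZMYND8 remains lowered in BT474m1. BRD2 was therefore higher with JQ1 in both lines while ZMYND8 was lower in both.

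The genes with the 6 log2 changes against DMSO most like those of HEXIM1 were sought among 8236 genes with 100 or more in all libraries. Among the closest were XPR1, GLCE, KIF3A and WDR47, with mean absolute differences of 0.15 to 0.22 when the median over genes was 0.83. XPR1, a phosphate exporter, gave 0.64 (SKBR-3) and 1.22 (BT474m1) with JQ1, beside 0.81 and 1.27 for HEXIM1. For BRD2 the 5 most similar genes were H3F3B, PNMA1, DIABLO, H3F3C and SLC6A8, at 0.15 to 0.19 with a median of 0.84. H3F3B, which encodes the replacement histone H3.3, gave 1.22 and 1.09 with JQ1, beside 1.33 and 0.96 for BRD2. H3F3C is a near copy of H3F3B, so reads could have been split between them and they are not separate entries in this list.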

How the data were processed

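Polyadenylated RNA from 8 cultures, 1 per group, was measured, and groups were taken from the labels. The deposited files hold 1 signal value per gene, an estimated count from RSEM that the authors scaled to an upper quartile of 1000 over genes above 0. Per the labels the build was hg19, whereas the methods text names another build and other tools. The methods text names a stranded library kit, and the labels name 2 different kits. Whether strand was used in counting is not given in the sources used here. Other BET genes and protein sequences are not analysed here.

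The value of 1 read was found per library from the spacing of low values. Between 83.8% and 85.2% of values above 0 were whole reads (tolerance 0.02), the rest being estimated fractions, so no count model was run. Genes were kept at 10 or more in at least 1 library. Changes are differences of log2(value + 1), called at a fold of 2. Their 95% intervals, and those of shares, are exact Clopper-Pearson intervals on reads; those of single values are exact Poisson intervals; those of departures and line differences use a normal approximation to Poisson error. All cover counting error only. Scripts (Python 3.11.15, numpy 2.4.6, pandas 2.3.3, scipy 1.17.1) were tested on simulated data.

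Named genes were all 9 of the set; elongation genes past 2-fold the same way in both lines against DMSO or with the largest called change in a direction, line and comparison; bromodomain genes past 2-fold the same way in both lines with JQ1; and the 5 genes most like HEXIM1 and BRD2, of which 1 is not reported here. Other names (all called genes of a short list, MEPCE and KAT2A among them) were added after their values were seen. The genes and lists were chosen with earlier results of these data known. Promoter sequences are from RefSeq, and transcript lengths and overlaps from GENCODE v44, neither being the files' own annotation. An additive limma 3.58.1 fit in R 4.3.3 (lmFit and eBayes with a trend; line, lapatinib and JQ1 as terms; adjusted p under 0.05 called) was added after the data had been seen. Alternatives were 2 other scalings, a pseudocount of 10, a filter at 100 and no filter, and for the additive fit each library left out.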

Additional observations from a re-analysis of the deposited data

Results flagged for a closer look

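In 4 of 40 cases (8 genes in 5 comparisons) the change in SKBR-3 and the change in BT474m1 had opposite signs. Both 95% counting intervals were clear of 0 as deposited. Under both other scalings the signs, taken without intervals, stayed opposite in these 4 cases. With 1 library per group the difference between lines was not tested against replicates in any of them. By the signs and intervals alone, 11.6% of the same comparisons over all 14429 genes had opposite changes, beside 10.0% here. HEXIM1 with lapatinib against DMSO had a change of 0.42 in SKBR-3 against -0.20 in BT474m1, a difference (BT474m1 minus SKBR-3) of -0.62. CCNT1 when lapatinib was added to JQ1 changed by 0.48 and -0.14, a difference of -0.62. CCNT2 when JQ1 was added to lapatinib changed by 0.16 and -0.13, a difference of -0.29. BRD2 with lapatinib against DMSO changed by 0.11 and -0.13, a difference of -0.24. All of these changes were short of 2-fold.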

How the results depend on the processing

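Groups had 1 library each and the labels give no replicate numbers, so no replicate of a group could be left out or paired by number. The additive limma fit, which matches libraries by line and by the other drug, called 3 genes of the set for JQ1 and 0 for lapatinib. Leaving out each library in turn gave 1 to 2 for JQ1 and 0 to 1 for lapatinib, and no filter gave 1 for JQ1. No called change of a gene of the set turned its direction under any alternative run. The count of genes of the set past 2-fold moved from 2 to 1 with a pseudocount of 10 in SKBR-3 for lapatinib against DMSO and for both drugs against JQ1, since HEXIM2 then gave 0.95 and 0.96. It moved from 3 to 1 between the untreated lines under the median of ratios. Among the 34 elongation genes, the median of ratios gave 1 past 2-fold with JQ1 in each line (0 as deposited), 1 for both drugs against lapatinib in SKBR-3 (2 as deposited) and 2 for lapatinib in BT474m1 (1 as deposited). The other counts stayed within 1.5 times, and the filters moved none. Of 88 changes of single genes, 27 moved beyond counting error under the median of ratios and 12 under equal totals, by at most 0.16 and 0.15. Over the 88, 6 and 3 changed sign, 1 and 0 of them beyond counting error, and none of these was larger than 0.04 in size as deposited. Departures moved beyond counting error for BRD2 in SKBR-3 (-0.01 under the median of ratios and 0.03 with equal totals, against -0.09) and for HEXIM1 in SKBR-3 (-0.48 with equal totals, against -0.60). The deposited values gave the same shares within pairs as the recovered reads. The median of all genes shifted by -0.15 between the untreated lines, by 0.11 for both drugs against lapatinib in SKBR-3 (both under the median of ratios) and by -0.14 for JQ1 in SKBR-3 under equal totals. HEXIM2, with 22 to 186 reads, was the gene most limited by depth.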
